A study of Mus musculus with 2 samples.

Results

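Integrins, the laminins they grip and the other core proteins of the basement membrane were examined in sorted thymic epithelial cells of fetal mice. The members were all gene symbols of the deposited tables that name an integrin alpha chain (Itga), an integrin beta chain (Itgb with 1 digit) or a laminin chain (Lama, Lamb, Lamc). Nid1, Nid2, Hspg2, Agrn and Dag1 were added. This gave 42 of 25791 genes: 18 integrin alpha chains, 8 integrin beta chains, 11 laminin chains and 5 linkers. The rule for choosing genes used no measured value, though earlier results of these data were known when they were chosen.

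RNA was sequenced from cells sorted at 15 days post coitum as negative for CD45, positive for EpCAM and negative for PDGFRa. There was 1 library titled B6J, of strain C57BL/6, and 1 titled humanCD3eTg, of strain C57BL/6J x CBA/J. The design sets epithelium that had thymocytes beside epithelium that had none. High-copy human CD3E transgenes are known to block T cell development in mice, but the treatment label gives humanCD3eTg as the library with thymocytes and B6J as the one without. The libraries are therefore named by their titles, and "lower" or "higher" always describes the humanCD3eTg library against B6J, whichever label is right. The sources used here do not give the promoter or copy number of the transgene, or how many fetuses were pooled. Genetic background, transgene and thymocyte state change together, so their parts cannot be told apart. With 1 library per group there was no replicate error and no test, and every difference below compares these libraries and not the conditions.

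Epithelial markers were high in both libraries. The 10 thymic epithelial markers summed to 8004 FPKM in B6J and 8106 in humanCD3eTg, where FPKM are fragments scaled to transcript length and to the total of mapped fragments. Of these 10 markers 7 were lower (median log2 ratio -0.22), and the sum is mostly keratin: Krt5 stood at 280 and 955 FPKM, and Foxn1, the master regulator of thymic epithelium, at 91.1 and 43.7 FPKM. Cells of other types moved between the libraries. The 10 pan-leukocyte markers summed to 91.2 and 9.90 FPKM and all 10 stood lower in humanCD3eTg, although CD45 was selected against. The 10 T lineage markers summed to 138 and 3.87 FPKM, again all 10 lower, with 3 listed at 0 in humanCD3eTg. The treatment label gives humanCD3eTg as the library with thymocytes, so T lineage RNA and that label go opposite ways. The 10 endothelial markers summed to 61.3 and 17.6 FPKM, and all of them were lower. The 9 listed neural crest and pigment markers summed to 11.0 and 172 FPKM, all 9 higher, and 5 of the 9 reached 1 FPKM in both libraries. The 10 mesenchymal markers summed to 231 and 265 FPKM, but 7 of the 10 were lower, and the median of the 9 with a mean of at least 1 FPKM was -0.18. These RNAs come from a sorted population, so fewer cells of a type and less RNA per cell cannot be told apart. Depth, estimated from the steps between low FPKM values, was about 20200000 fragments in B6J and 16000000 in humanCD3eTg.

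An integrin is a pair of an alpha and a beta chain that spans the cell membrane and ties the matrix outside to actin or keratin filaments inside. Laminins are trimers of an alpha, a beta and a gamma chain that assemble into the sheet on which epithelia rest. Nidogens and perlecan join this sheet to the collagen IV network, and agrin and dystroglycan add a further link between laminin and the cell. In the thymus the epithelium of the capsule and around vessels lies on such a sheet, and thymocytes use integrins of their own to hold on to stromal cells.

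Most integrin chains stood somewhat lower in humanCD3eTg, few by much. Of the 26 integrin chains 14 averaged 1 FPKM or more across the libraries, and 13 of these were lower, where 55.4% of all 13493 genes with that mean were lower. Their median log2 ratio, computed on FPKM + 1, was -0.29, beside -0.05 for all those genes. At least 2-fold lower on this scale was 1 of the 14, Itgal, against 4.47% of all genes. None of the 14 was at least 2-fold higher, against 2.10% of all genes. Of the 14 chains, 12 reached 1 FPKM in both libraries, while Itgal and Itga1 passed only through their level in B6J. Over all 26 chains, 21 were lower, with a median of -0.27, where 45.3% of all 25791 genes were lower, many being listed at 0 in both libraries, and their median was 0.

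**Figure D1:**
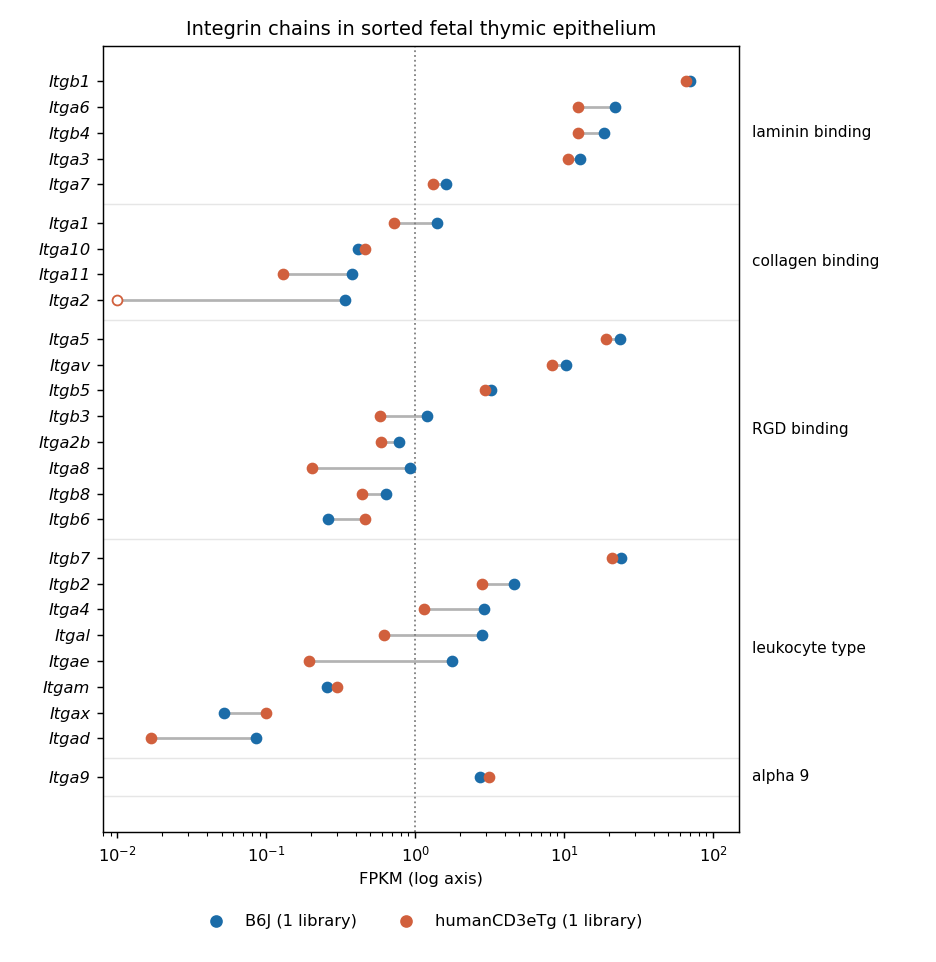
FPKM (log axis) of the 26 integrin chains in B6J (blue) and humanCD3eTg (orange), 1 library each, grouped by the ligand or cell type they are known for. The open point, at the left edge, is Itga2, listed at 0 in humanCD3eTg; the dotted line marks 1 FPKM. The points of Itgb1, Itga3 and Itgb7 lie close together at high levels, and those of Itgae and Itgal lie far apart at low levels.

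The chains that bind laminin were the most abundant group, and all 5 were lower in humanCD3eTg, beside 55.4% of all genes. Itgb1, the beta chain shared by most matrix receptors, had 70.1 FPKM in B6J against 65.5 in humanCD3eTg (log2 ratio -0.10). It was the highest of all integrin chains in both libraries. Itga6, which pairs with Itgb1 or with Itgb4, stood at 21.8 and 12.4 FPKM (-0.77), the largest difference in this group. Itgb4, the long-tailed partner that ties hemidesmosomes to keratin, stood at 18.6 and 12.5 FPKM (-0.54). Itga6 and Itgb4 thus differed in the same direction and by similar amounts, and Itgb4 over Itga6 was 0.853 in B6J and 1.01 in humanCD3eTg. Itga3, which forms the other main laminin receptor of epithelia with Itgb1, stood at 12.8 and 10.6 FPKM (-0.25). Itga7, best known from muscle, stood at 1.60 and 1.32 FPKM (-0.16), a difference not separable from counting error (95% counting interval of the ratio 0.620 to 1.11). As a result Itga6 over Itga3 was 1.70 in B6J and 1.17 in humanCD3eTg, while the 5 chains together summed to 125 and 102 FPKM.

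Chains that recognise the RGD motif of fibronectin and vitronectin came next. Itga5, the fibronectin receptor chain, stood at 23.7 and 19.0 FPKM (-0.31) and was the highest alpha chain in both libraries. Itgav, which pairs with several beta chains and can activate latent TGF-beta, stood at 10.2 and 8.30 FPKM (-0.28). Besides Itgb1 it pairs with the beta chains of this group, of which Itgb5 was the highest, at 3.21 and 2.93 FPKM (-0.10). The Itgb5 difference was not separable from counting error either (counting interval of the ratio 0.731 to 1.14). Itgb3, Itgb6 and Itgb8 had means under 1 FPKM. Itgb3 stood at 1.19 and 0.582 FPKM, Itgb6, an epithelial chain, at 0.260 and 0.459 FPKM, and Itgb8 at 0.639 and 0.436 FPKM. Itgb6 was the only chain of this group that was higher in humanCD3eTg. Itga8, known from mesenchyme around epithelia, stood at 0.922 FPKM in B6J (95% counting interval 0.751 to 1.11) and 0.204 in humanCD3eTg (0.119 to 0.317). These intervals do not overlap, on about 104 and 18 fragments. They cover counting error only, rest on the estimated depth and 1 transcript length per gene, and say nothing of the spread between fetuses. Itga2b, the platelet chain, stood at 0.772 and 0.585 FPKM.

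Collagen-binding chains were scarce. Itga1 stood at 1.40 and 0.720 FPKM (-0.48), Itga10 at 0.413 and 0.456 FPKM, and Itga11, a fibroblast chain, at 0.377 and 0.129 FPKM. Itga2, the collagen receptor of keratinocytes and platelets, was listed at 0.336 FPKM in B6J, about 47 fragments, and at 0 in humanCD3eTg. A listed 0 can be a failed estimate in such tables, so no fold is given. Itga9, which binds tenascin C and related ligands, was the only integrin with a mean of at least 1 FPKM that was higher in humanCD3eTg, at 2.73 and 3.13 FPKM (0.15). The ratio of its values was 1.15 with a counting interval of 0.991 to 1.34, so the difference was not separable from counting error.

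The 8 chains known from leukocytes differed by unlike amounts, also among chains that share a partner. Itgal, the alpha chain of LFA-1, which binds ICAMs, stood at 2.79 FPKM in B6J (counting interval 2.47 to 3.13) and 0.616 in humanCD3eTg (0.452 to 0.808), with a log2 ratio of -1.23. Itgae, which binds E-cadherin and marks T cells within epithelia, stood at 1.78 (1.48 to 2.10) and 0.194 FPKM (0.0944 to 0.338). Its mean of 0.985 FPKM lay just under the limit of 1, so it entered no count, and its log2 ratio was -1.22. In FPKM itself, Itgae was 9.15-fold lower (counting interval 5.07 to 19.2) and Itgal 4.53-fold lower (3.36 to 6.31). Itga4, whose ligands are VCAM-1, MAdCAM-1 and fibronectin, stood at 2.90 and 1.14 FPKM (-0.86), or 2.54-fold lower (2.14 to 3.02).

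The beta chains that complete these receptors differed less. Itgb2, the partner of Itgal in all leukocytes, stood at 4.60 and 2.82 FPKM (-0.55), so that Itgb2 over Itgal was 1.65 in B6J and 4.59 in humanCD3eTg. Itgb7, the only known partner of Itgae and a partner of Itga4, stood at 23.9 and 20.9 FPKM (-0.19). It was the second most abundant integrin beta chain in both libraries, above Itgb4. Itgb7 over the sum of Itga4 and Itgae was 5.11 in B6J and 15.6 in humanCD3eTg. In humanCD3eTg the level of Itgb7 was above the summed 9.90 FPKM of the 10 pan-leukocyte markers, and in B6J it was below their 91.2 FPKM. The myeloid chains Itgam (0.257 and 0.297 FPKM), Itgax (0.0523 and 0.0990) and Itgad (0.0852 and 0.0168) rested on 1 to 23 estimated fragments.

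**Figure D2:**
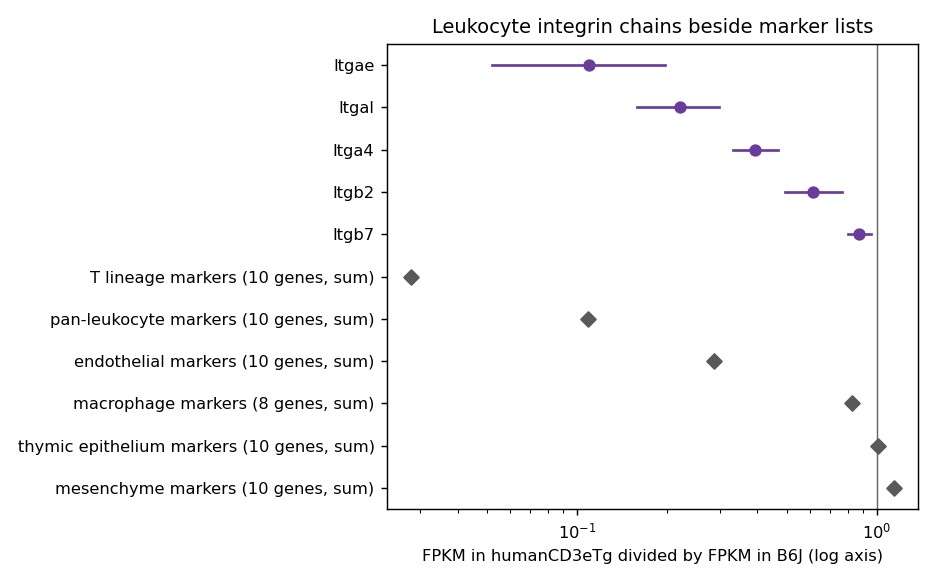
FPKM in humanCD3eTg divided by FPKM in B6J (log axis, 1 library each) for 5 integrin chains known from leukocytes (circles, with 95% counting intervals) and for the summed markers of 6 cell types (diamonds). Itgae (0.109) lies beside the pan-leukocyte sum (0.109), Itga4 (0.394) and Itgb2 (0.613) lie between, and Itgb7 (0.874) lies near the macrophage (0.829) and thymic epithelial (1.01) sums.

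Markers of leukocytes moved with Itgae, Itgal and Itga4. All 10 pan-leukocyte markers were at least 2-fold lower (median -2.03), beside 4.47% of all genes, though 3 of them reached 1 FPKM in both libraries and 7 only in B6J. Their sum was 9.21-fold lower. The T lineage sum was 138 FPKM in B6J and 3.87 in humanCD3eTg, and no fold is given, as 3 of its 10 genes were listed at 0 in humanCD3eTg. Macrophage markers summed to 22.8 and 18.9 FPKM, with 5 of 8 lower. The part of these cells in the integrin values was not tested. The medians were -0.25 over the 5 laminin-binding chains and -0.28 over the 3 RGD-binding chains with a mean of at least 1 FPKM.

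Promoter sequence was set beside the values for Itga4 and Itgb7, because these chains pair with each other and yet differed by unlike amounts. RefSeq's table for build GRCm38.p6 held a promoter for 27 of the 42 members, Lamb1-1 being matched under its current symbol Lamb1. The submitters' build is mm9, so these coordinates belong to the later build only. The 250 bases before each start site are given 5′ to 3′ on the strand of the gene, chr2:79255176-79255425 on the plus strand for Itga4 and chr15:102231936-102232185 on the minus strand for Itgb7. Capitals mark matches, on either strand, to TGNGGT (a loose form of the RUNX core), GAGGAA (an ETS site) or TGANTCA (AP-1). The RUNX core has T or C where TGNGGT allows any base. Of the matches marked for Itga4 and Itgb7 only ACCACA fits that core, and ACCCCA does not.
Itga4: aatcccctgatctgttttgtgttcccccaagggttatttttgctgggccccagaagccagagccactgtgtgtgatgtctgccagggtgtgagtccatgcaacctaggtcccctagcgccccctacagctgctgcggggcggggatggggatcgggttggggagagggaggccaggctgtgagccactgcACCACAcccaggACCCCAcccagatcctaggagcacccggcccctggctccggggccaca
Itgb7: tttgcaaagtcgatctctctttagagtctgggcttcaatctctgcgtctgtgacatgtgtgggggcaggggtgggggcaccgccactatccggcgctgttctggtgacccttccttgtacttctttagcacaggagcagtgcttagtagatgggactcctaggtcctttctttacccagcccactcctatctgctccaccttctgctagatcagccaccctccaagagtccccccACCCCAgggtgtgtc
Itga4 held 2 matches to TGNGGT and Itgb7 1, and neither held the other motifs. Of all 32851 promoter windows of this length, 40.1% held TGNGGT, 23.3% GAGGAA and 6.75% TGANTCA, so a match to the first is common. A match is a run of letters and not a shown binding site.

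**Figure D3:**
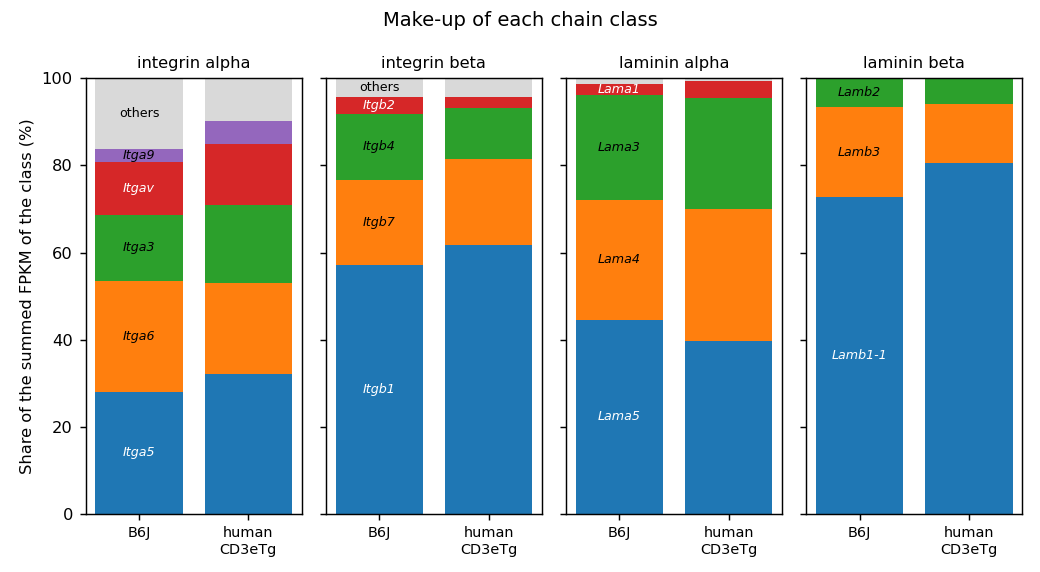
Share (%) of the summed FPKM of each chain class that each gene made up in B6J (left bar) and humanCD3eTg (right bar), 1 library each; genes under 3% on average are pooled in grey, and names stand in the left bars. Itga5 leads the integrin alpha chains, Itgb1 the beta chains, and Lamb1-1 the laminin beta chains in both libraries.

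The shares of the abundant integrin chains differed by a few percentage points, those of Itga6 and Itgb4 being lower in humanCD3eTg. The shares of some scarce chains differed by larger factors. Itgb1 gave 57.2% of the summed beta chain FPKM in B6J and 61.7% in humanCD3eTg, Itgb7 19.5% and 19.7%, and Itgb4 15.2% and 11.7%. Itga5 gave 27.9% and 32.1% of the alpha chain sum, Itga6 25.6% and 20.9%, Itga3 15.1% and 17.9%, and Itgav 12.1% and 14.0%. Among scarcer alpha chains, Itga4 gave 3.42% and 1.93%, Itgal 3.28% and 1.04%, Itgae 2.09% and 0.328%, and Itga9 3.21% and 5.30%. Alpha chains summed to 85.0 and 59.2 FPKM and beta chains to 123 and 106 FPKM. Of the alpha chains Itga6 differed most in FPKM, and the order Itga5, Itga6, Itga3, Itgav was the same in both libraries.

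Laminin chains differed less than integrins, with 1 exception. Of 11 chains 9 had a mean of at least 1 FPKM, all 9 in both libraries. Of these 5 were lower and 4 higher in humanCD3eTg, a share near the 55.4% of all genes that were lower. The median of the 9 was -0.18, beside -0.05 for all genes. None differed by 2-fold in either direction, where 4.47% of all genes were lower and 2.10% higher by that much.

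**Figure D4:**
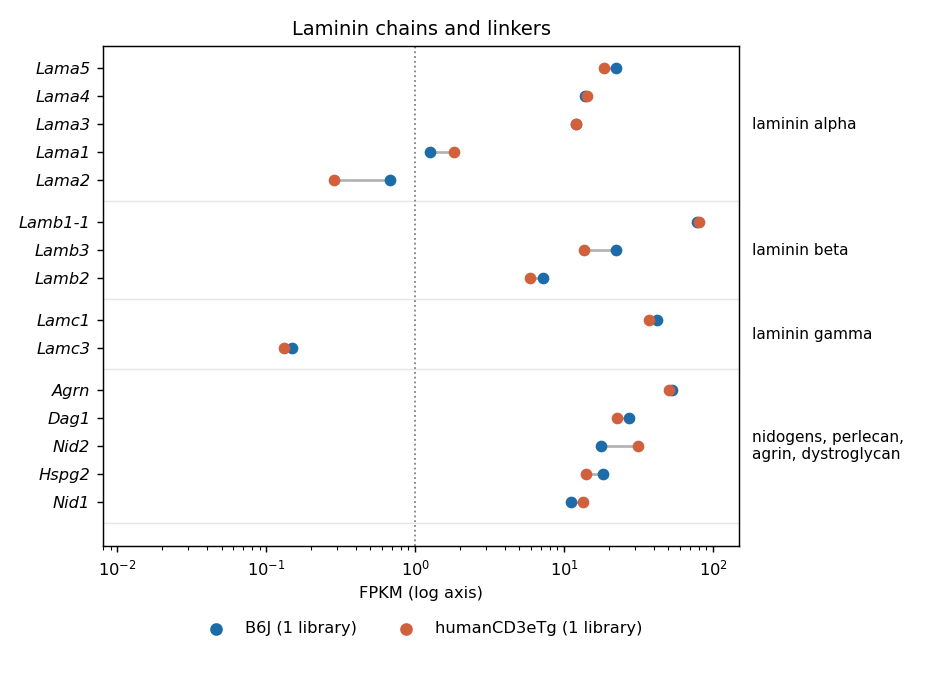
FPKM (log axis) of 10 laminin chains and 5 linkers in B6J (blue) and humanCD3eTg (orange), 1 library each; the dotted line marks 1 FPKM. Most pairs of points touch; Lamb3 is lower and Nid2 higher in humanCD3eTg, and Lama2 and Lamc3 lie under 1 FPKM.

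Alpha chains decide which integrins a laminin binds. Lama5, the main alpha chain of mature epithelial sheets, was the highest, with 22.1 FPKM in B6J against 18.5 in humanCD3eTg (log2 ratio -0.25). Lama4, known from vessel walls and mesenchyme, stood at 13.7 and 14.1 FPKM (0.05), with a ratio of 1.03 and a counting interval of 0.961 to 1.11. The endothelial markers were 3.49-fold lower in sum over the same libraries. Lama3, the epithelial anchoring chain, stood at 11.9 FPKM in both (0.00). Lama1, typical of early embryonic epithelia, stood at 1.26 and 1.81 FPKM (0.32), a ratio of 1.44 (1.21 to 1.72) on about 237 and 271 fragments. Lama2, the muscle and mesenchymal chain, was scarce, at 0.677 and 0.285 FPKM, or 2.38-fold lower (1.67 to 3.44). The scarcest alpha chains thus differed in opposite directions, and the 3 abundant ones by little.

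Among beta chains, Lamb1-1, the common beta chain, was the most abundant laminin of all, at 78.4 and 80.7 FPKM (0.04). Lamb2, its alternative in vessels and synapses, stood at 7.16 and 5.85 FPKM (-0.25). Lamb3, which occurs only in the anchoring laminin of stratified epithelia together with Lama3, stood at 22.2 and 13.6 FPKM (-0.67), a ratio of 0.612 (counting interval 0.567 to 0.659). Of the 9 chains with a mean of at least 1 FPKM it was the 1 that was at least 1.5-fold lower on FPKM + 1, a share near the 10.9% of all genes. Lama3, with which it shares that trimer, was level, as given above. Lamc1, the common gamma chain, stood at 41.9 and 36.8 FPKM (-0.18), and Lamc3 at 0.148 and 0.132 FPKM. Genes for the widespread epithelial laminins (Lama5, Lamb1-1, Lamb2, Lamc1) summed to 150 and 142 FPKM.

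For the flat Lamb1-1 and the lower Lamb3 the upstream windows are shown in the same way, with the same capitals. They lie at chr12:31265043-31265292 and chr1:193301744-193301993 of GRCm38.p6, both on the plus strand, the second being the more upstream of 2 listed Lamb3 start sites.
Lamb1: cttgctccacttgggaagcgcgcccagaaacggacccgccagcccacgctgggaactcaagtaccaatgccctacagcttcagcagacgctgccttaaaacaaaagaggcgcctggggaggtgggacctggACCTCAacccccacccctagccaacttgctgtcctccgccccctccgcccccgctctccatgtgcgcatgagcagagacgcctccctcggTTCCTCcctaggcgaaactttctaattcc
Lamb3: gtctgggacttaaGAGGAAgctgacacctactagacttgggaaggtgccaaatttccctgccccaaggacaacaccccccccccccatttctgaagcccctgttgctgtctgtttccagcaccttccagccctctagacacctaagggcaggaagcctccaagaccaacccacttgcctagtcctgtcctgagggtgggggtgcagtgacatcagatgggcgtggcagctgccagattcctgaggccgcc
Each held 1 match to GAGGAA, Lamb1 also 1 to TGNGGT, and neither held TGANTCA. The window of the other Lamb3 start site, not printed, held 2 matches to TGNGGT and 0 to the other motifs.

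The sums of the laminin classes were unequal in both libraries. Alpha chains summed to 49.7 and 46.7 FPKM and beta chains to 108 and 100 FPKM, although a trimer holds 1 of each. Lamb1-1 gave 72.7% of the beta sum in B6J and 80.6% in humanCD3eTg, and Lamb3 20.6% and 13.6%. Lama5 gave 44.6% and 39.6% of the alpha sum, Lama4 27.5% and 30.3%, and Lama3 24.0% and 25.6%.

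The linkers included the member with the highest ratio among the 28 with a mean of at least 1 FPKM. Nid2, nidogen 2, which bridges laminin and collagen IV, had 17.5 FPKM in B6J against 31.2 in humanCD3eTg (log2 ratio 0.80), a ratio of 1.78 (counting interval 1.67 to 1.90). It was the only 1 of the 28 members with a mean of at least 1 FPKM to be at least 1.5-fold higher, against 5.95% of all genes. Nid1, its close relative with the same role, stood at 11.1 and 13.3 FPKM (0.24). Nid2 over Nid1 was 1.59 in B6J and 2.35 in humanCD3eTg. Neural crest and pigment markers moved in the same direction, with 9 of 9 at least 2-fold higher, beside 2.10% of all genes. Of the 9 markers 5 reached 1 FPKM in both libraries. The part of these or of other cells in the Nid2 value was not tested.

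The other linkers stood slightly lower. Hspg2, which encodes perlecan, a heparan sulphate proteoglycan that holds growth factors, stood at 18.3 and 14.0 FPKM (-0.36). Agrn, agrin, which binds laminin and dystroglycan, stood at 53.2 and 50.2 FPKM (-0.08). Dag1, from which both dystroglycan subunits are cut, stood at 27.0 and 22.7 FPKM (-0.24). Of the 5 linkers 3 were lower and 2 higher, where 55.4% of all genes were lower. The median of the linkers was -0.08, and none differed by 2-fold.

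**Figure D5:**
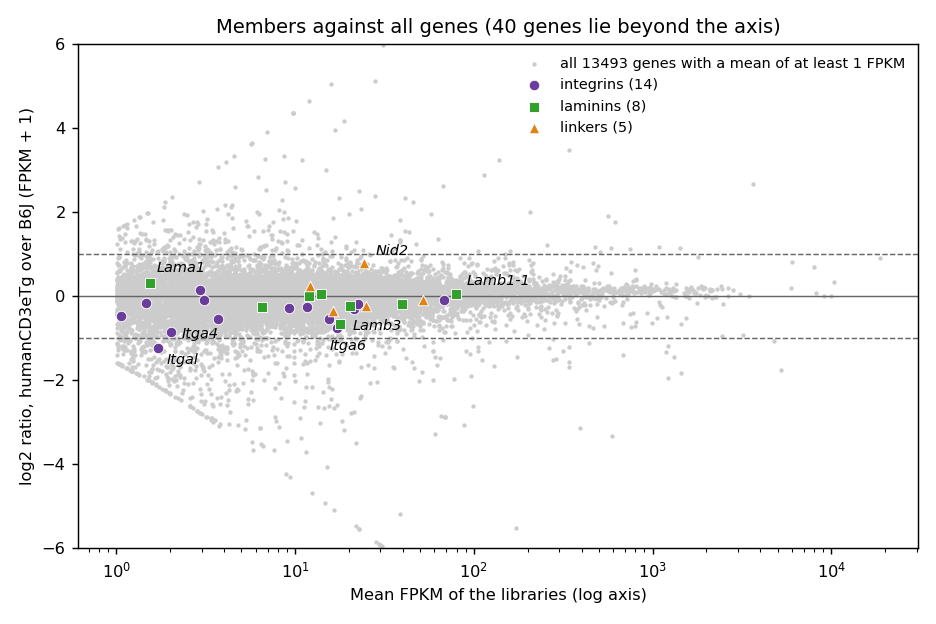
Log2 ratio of humanCD3eTg over B6J (on FPKM + 1) against the mean FPKM of the libraries (log axis) for 13493 genes (grey), 14 integrins (purple circles), 8 laminins (green squares) and 5 linkers (orange triangles), 1 library per group; 40 genes lie beyond the vertical axis. Dashed lines mark 2-fold; only Itgal (-1.23) lies beyond them among the members, and Nid2 (0.80) is the highest.

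Genes that work with the members were followed through lists. In the integrin adhesion complex, the proteins that couple integrin tails to actin, 13 of 24 genes were lower, with a median of -0.04. Parvg, the parvin of blood cells, stood at 5.85 and 0.593 FPKM (-2.10) and was the 1 member of that list to differ by 2-fold. Fermt3, the kindlin of blood cells, stood at 3.75 and 1.81 FPKM (-0.76), and Actn1, an actin cross-linker, at 64.2 and 36.2 FPKM (-0.81). The pan-leukocyte markers moved with Parvg and Fermt3, and their part was not tested. Of 8 genes for hemidesmosome and integrin partners 7 were lower, beside 55.4% of all genes, and none differed by 2-fold (median -0.21). Among the lower ones Dst, which links Itgb4 complexes to keratin, stood at 14.9 and 10.1 FPKM (-0.52). Cd9, a tetraspanin that associates with integrins, stood higher, at 71.0 and 124 FPKM (0.79).

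Among 6 basement membrane collagen genes 3 were lower and 3 higher (median -0.20), where 55.4% of all genes were lower. Col4a1 and Col4a2, the chains of the common collagen IV network, had 144 and 101 FPKM (-0.50) and 133 and 95.7 FPKM (-0.47) in that order. Col15a1 stood at 7.18 and 2.23 FPKM (-1.34), while Col18a1 was higher at 66.8 and 86.6 FPKM (0.37). Of 11 other basement membrane genes 1 was lower by 2-fold or more and 1 higher (median 0.03), beside 4.47% and 2.10% of all genes. The lower gene was Frem2, of the Fraser complex that anchors epithelia to mesenchyme, at 27.5 and 4.19 FPKM (-2.46). The higher gene was Egfl6, at 0.737 and 4.89 FPKM (1.76). Frem2 thus differed more than any laminin or linker did.

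Ligands other than laminin included larger single differences. Of 15 such genes 12 were lower (median -0.36), and 4 of the 12 by 2-fold or more, beside 55.4% and 4.47% of all genes. Of the 15, 14 reached 1 FPKM in both libraries, while Madcam1 passed only through its level in B6J. Madcam1, the ligand of the Itga4 and Itgb7 pair, stood at 8.30 and 0.363 FPKM (-2.77), and Vcam1, a ligand of Itga4, at 79.9 and 18.9 FPKM (-2.02). Tnc, tenascin C, a ligand of Itga9, stood at 255 and 92.6 FPKM (-1.45). Icam2, a ligand of the Itgal and Itgb2 pair that endothelium carries, stood at 4.74 and 1.21 FPKM (-1.38). Endothelial markers moved with these ligands, with 8 of 9 at least 2-fold lower, beside 4.47% of all genes. Of the 9 markers 5 reached 1 FPKM in both libraries, and the part of endothelial cells was not tested. In the list of dystroglycan glycosylation and its membrane complex 11 of 19 genes were lower (median -0.10), near the 55.4% of all genes. Dtna, a dystrobrevin, stood higher, at 1.61 and 3.16 FPKM (0.67), and so did Sgcd, a sarcoglycan, at 1.04 and 2.53 FPKM (0.79). B3gnt1 went the other way, at 6.76 and 4.37 FPKM (-0.53), the lowest log2 ratio among these 19 genes.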

How the data were processed

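Total RNA of the sorted cells was made into libraries with a TruSeq kit from Illumina, as the labels' protocols state. The authors deposited 1 FPKM value per gene symbol and library. The submitters' processing notes name TopHat2 2.0.8, Bowtie2 2.1.0, Cufflinks 2.1.1 and mm9. Annotation, filters and strand use are not given there, so overlapping genes cannot be separated.

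Log2 ratios (humanCD3eTg over B6J) were taken on FPKM + 1, which understates differences of low genes. Counts and medians cover genes averaging 1 FPKM or more, and 2-fold means a log2 ratio of 1 or beyond in either direction. A value of at most 0.001 FPKM was called listed at 0. Depth was estimated, because FPKM tables carry none. The most frequent ratio among 1376 low genes was 1.26 (80 genes). With GENCODE M21 transcript lengths less 210 bases, 58.4% of 310 low genes in B6J and 60.2% of 244 in humanCD3eTg fell within 0.1 of a whole fragment, where 20% is the chance level. Counting intervals (95%, Poisson for levels, Clopper-Pearson for ratios) use this depth and the longest coding transcript, and are approximate. The computations were tested on simulated data.

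Groups came from the library titles. The members and lists were chosen with earlier results of these data known. Up to 4 genes per list are named, by the largest ratio. All members are named except 1 laminin chain, which is in the counts and medians but not reported here, like 1 gene of a list. The settings varied were the pseudocount (0.1 or 5), the filter (none, or 5 FPKM), the scaling (centred on the median, quantile normalized, or without haemoglobin, mitochondrial and ribosomal protein genes) and the fold limit (1.5 or 4). Python 3.11.15, pandas 2.3.3, numpy 2.4.6 and scipy 1.17.1 were used.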

Additional observations from a re-analysis of the deposited data

How the results depend on the processing

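The number of integrins at least 2-fold lower, 1 as reported, was 2 with a pseudocount of 0.1 or with no filter, 0 with a pseudocount of 5, a mean of at least 5 FPKM or a 4-fold limit, and 3 with a 1.5-fold limit. With a 1.5-fold limit, 1 laminin was lower and 1 linker higher, where 2-fold gave 0 for both. The medians of the 3 groups moved by at most 0.1 under each alternative and kept their sign. Of 188 recomputed ratios of the 28 members 2 changed sign, Itgb5 to 0.04 with quantile normalization and Lama3 to -0.03 with rescaling. No paired analysis was possible because each group has 1 library. Leaving out a library was not possible for the same reason. Depth limits members with under 25 estimated fragments in a library, which are Itga2, Itga8, Itga11, Itgad, Itgae, Itgam, Itgax, Itgb6 and Lamc3, and no value here has an error between fetuses.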
